A study of Arabidopsis thaliana with 4 samples.

Results

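The replicate 1 peak list holds 3975 genomic regions at which TRB1 was enriched by chromatin immunoprecipitation and sequencing (ChIP-seq) in seedlings of the plant Arabidopsis thaliana. It is the list called for the first immunoprecipitation over its own control, and every region of it was taken. It makes up 3975 of the 40669 regions in the 4 deposited lists. The other 3 are a replicate 2 list of 7480 regions, a list of 24219 regions from the PePr caller and a further TRB1 list of 4995 regions, here called the genomic list. They were used only as references.

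TRB1, TELOMERE REPEAT BINDING FACTOR 1, is a plant protein with a Myb-like DNA-binding domain. It binds the telomeric repeat at chromosome ends and also short copies of that repeat, called telo-boxes, in gene promoters. Telo-boxes are known from the promoters of genes that plants use to build ribosomes and to start translation, so the list was read across those genes, across other gene groups and along the chromosomes.

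The study had 4 libraries, 1 in each group. TRB1pro:TRB1-GFP plants, which carry a TRB1-GFP fusion under the TRB1 promoter, were precipitated with the GFP-Trap A matrix, which binds GFP. Wild-type (WT) plants were precipitated with an anti-TRB1 antibody named 5.2. The control of the first was WT plants on the same matrix, and the control of the second was WT plants with no antibody. All groups were seedlings aged 14 days that were grown with 16 h at 21 °C and 8 h at 19 °C and fixed with 1% formaldehyde. The labels do not tie the replicate 1 list to either of the 2 immunoprecipitations. With 1 library in each group no test was made. The replicate 2 list is given beside the replicate 1 values as a second list, with no spread between replicates. Intervals are exact 95% intervals that cover counting error only. The lists carry no read counts, so the depth behind a peak is unknown. Whole seedlings were used, so fewer cells with TRB1 at a site and less TRB1 per cell cannot be told apart.

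The replicate 1 peaks were broad. Their median width was 2081 bp, with quartiles of 1649 and 2873 bp and a range of 1142 to 13032 bp. Together they covered 9.72 Mb, or 8.16% of the 5 nuclear chromosomes. Neighbouring peaks lay a median of 14388 bp apart, and 900 of the 3970 gaps between neighbours (22.7%) were under 5000 bp. Peaks over 5000 bp wide numbered 130, or 3.27% of the list (95% interval 2.74 to 3.87%).

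Each peak carries a score that the authors gave. Its scale is not given, and it is used here only within the list. It ran from 664 to 3233 with a median of 1772. Exactly 3100 was the score of 1124 peaks, or 28.3% of the list, and 44 peaks scored above that, so the order among the highest peaks carries little information. Wider peaks scored higher. The widest 994 peaks, of 2874 bp or more, had a median score of 2176, with 36.8% of them at or above 3100. The narrowest 998 peaks, of 1649 bp or less, had a median of 1504, with 22.5% at or above 3100.

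The score followed presence in the second list, but not position near genes. A peak of the replicate 2 list overlapped 725 of the 882 peaks that scored under 1000, or 82.2% (79.5 to 84.7%). The share was 88.3% of the 1286 peaks from 1000 to under 2000, 91.9% of the 639 from 2000 to under 3100, and 97.9% (96.8 to 98.6%) of the 1124 at exactly 3100. Among the 44 peaks above 3100 the order broke, with 36 overlapping, or 81.8% (67.3 to 91.8%). The share of peaks centred within 500 bp of a protein-coding gene's start or end lay between 61.4 and 68.9% in all 5 score ranges, with overlapping intervals.

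**Figure D1:**
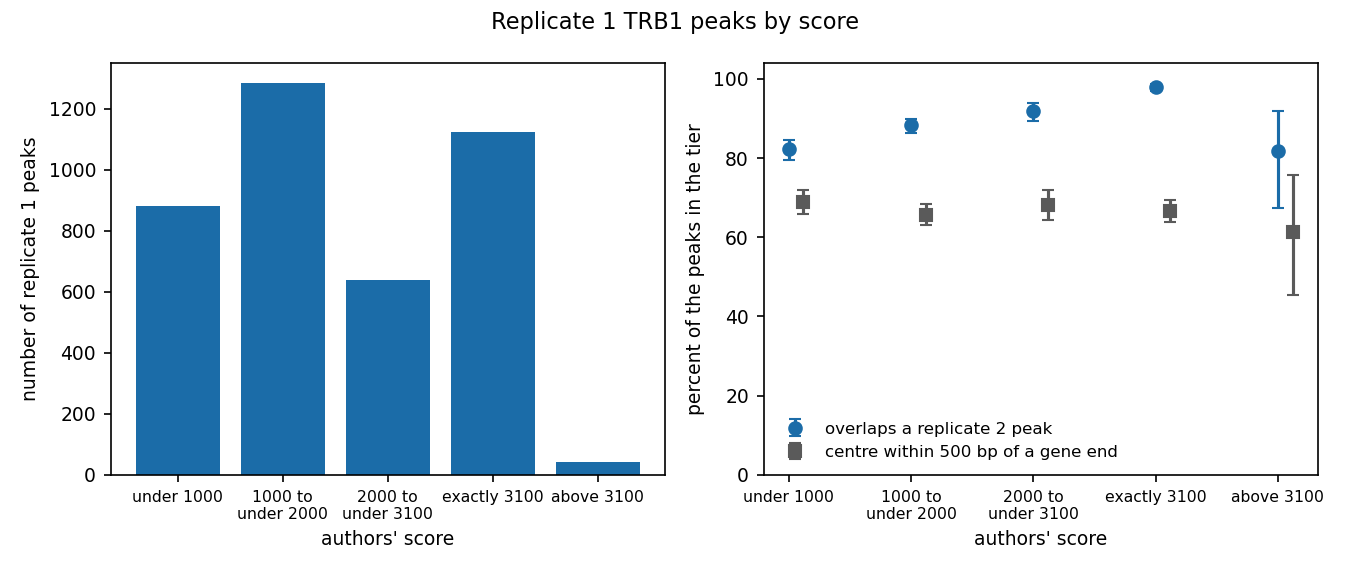
Number of replicate 1 peaks in 5 ranges of the authors' score (left), and the percent of the peaks in each range that overlap a replicate 2 peak or are centred within 500 bp of a gene end (right; bars are exact 95% intervals for counting error). Overlap climbs to 97.9% at exactly 3100 and is 81.8% above it, while the share near gene ends stays between 61.4 and 68.9%.

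The 5 peaks of highest score had little in common in where they lay. The first, chr1:27644736-27647684 with a score of 3233, reached NUDT21, which encodes a Nudix hydrolase, and 2 unnamed genes. (Peak positions are those of the authors' list, counted from 1. A peak reaches a gene here when it comes within 500 bp of the gene's start or end.) The next, chr3:11859983-11862417 with 3228, was centred 16666 bp from the nearest protein-coding gene end and held a transcribed pseudogene, AT3G30214. The peak chr5:18789697-18793614, also at 3228, was centred 81 bp from an end of FLS2, the receptor kinase for bacterial flagellin. The peak chr4:17408692-17412657 at 3223 was centred 3408 bp from the nearest gene end, that of SPT, the bHLH factor SPATULA. The fifth, chr2:12614666-12616244 at 3222, was centred 40 bp from an end of TOPP1, a type one protein phosphatase. All 5 overlapped a replicate 2 peak, as did 90.1% of the whole list.

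The 5 widest peaks also overlapped a replicate 2 peak each, beside 90.1% of the whole list, and each reached at least 2 genes. The widest, chr1:8973901-8986932, spanned 13032 bp with a score of only 686. It reached TEM1, a repressor of flowering, and PFT1, the Mediator subunit MED25. The peak chr5:26897671-26908158 of 10488 bp reached LBD37, a regulator of nitrogen-responsive genes. The peak chr1:29358915-29368315 of 9401 bp reached RAP2.4, an ERF/AP2 factor, and chr2:16763992-16773361 of 9370 bp reached CZF1, a CCCH zinc finger protein. The remaining one, chr5:23992012-24002438 of 10427 bp, reached 5 genes, among them the metal transporter gene ZIP2 and the clock-related gene SRR1. The 5 narrowest peaks, of 1142 to 1309 bp, were a different set: 3 of them reached no protein-coding gene and overlapped no replicate 2 peak, and the other 2 scored 3100.

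Peak centres lay close to gene ends. Of the 3975 centres, 1000 (25.2%) were within 100 bp of a gene end and 19 were 5000 bp or more away, with a median of 274 bp. Starts and ends of genes could not be separated, since the gene table used here has no strand. Within 500 bp of an end lay 2666 centres, or 67.1% (65.6 to 68.5%), where 35.3% of the chromosome length lies. That is 63.3 peaks per Mb near gene ends, against 17.3 per Mb in gene interiors further than 500 bp from an end and 16.7 per Mb outside genes and further than 500 bp away. Just outside genes the density was 69.7 per Mb and just inside 59.5 per Mb.

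**Figure D2:**
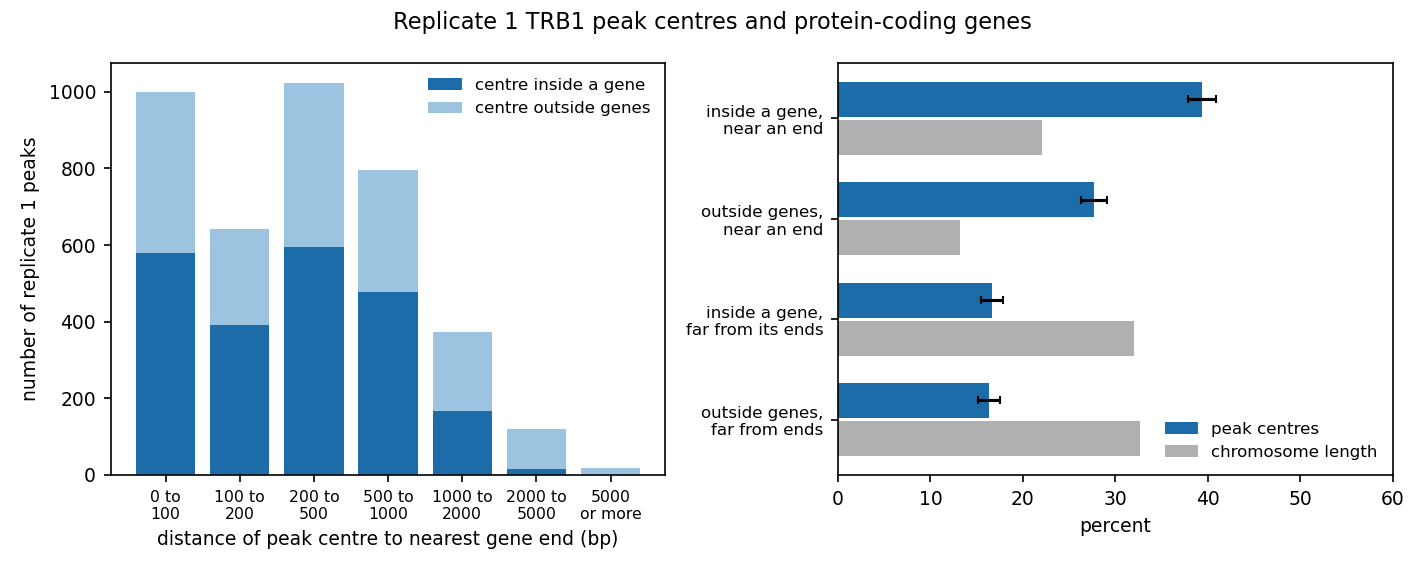
Number of replicate 1 peak centres by distance to the nearest protein-coding gene end in bins of unequal width (left), and the percent of centres in 4 position classes beside the percent of chromosome length in each (right; bars are exact 95% intervals; near means within 500 bp). Both classes near an end hold a larger share of centres than of length.

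A single peak often reached several genes. At least 1 protein-coding gene was reached by 3759 peaks. The 1883 peaks that reached 2 genes were the most common kind (47.4%), 1199 reached 1, 566 reached 3, 111 reached 4 or more, and the most was 7. The more genes a peak reached, the wider it was: the median width was 4179 bp with 4 or more genes, 2784 bp with 3, 2028 bp with 2, 1919 bp with 1 and 1683 bp with none. A count of genes is therefore not a count of binding sites, and the gene that a peak belongs to cannot be told from the list.

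Of 27444 protein-coding genes, 6746 had a replicate 1 peak within 500 bp of an end, or 24.6%. The replicate 2 list gave 41.4% by the same rule. Of the genes with a replicate 1 peak, 90.6% also had a replicate 2 peak, and of those with a replicate 2 peak 53.8% had a replicate 1 peak. The share was lowest among short and among isolated genes. Of the 6861 shortest genes, of at most 1323 bp, 19.0% had a peak, against 26.0 to 26.7% in 3 equal groups of longer genes. Of the 6861 genes furthest from a neighbour, at 759 bp or more, 19.2% had one, against 23.9 to 28.3% in the 3 groups with closer neighbours.

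Genes of cytosolic ribosomal proteins, which form the ribosome outside the organelles, had a replicate 1 peak most often of the 21 gene lists. Of 37 such genes that could be recognised by symbol or synonym, 28 had one, or 75.7% (58.8 to 88.2%), beside 24.6% of all genes, a ratio of 3.08. Ribosomal protein genes that could not be recognised this way are not counted, so the share is not that of the whole class. The share of all genes also includes genes without a symbol, and 37.8% of protein-coding genes have one. The 28 genes were reached by 30 different peaks, and each gene is given below with its peak of highest score. In the replicate 2 list 36 of the 37 had a peak, 2.35 times the share of all genes there, and every gene with a replicate 1 peak was among them. These genes were shorter than most, with a median length of 1672 bp against 2078 bp for all genes, and closer to a neighbour, with a median gap of 92 bp against 190 bp. The part of that in the result was not tested.

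The ribosomal protein genes differed in score. A score of 3100 was given at 11 of the 28, where 31.9% of all genes with a peak scored 3100 or more. Their median score was 2584, against 1931 for all genes with a peak. The small-subunit gene RPS15 had a peak at chr1:1139345-1142073, and PFL, which encodes the small-subunit protein S18, at chr1:8067057-8068695. The large-subunit gene SAC52, for protein L10, had one at chr1:4886009-4889031 and RPL3B one at chr1:22722453-22724114. All 4 scored 3100. Among the lower scores was that of RPS28, at 952. Neither RPL16A nor RPL16B, copies for one large-subunit protein, had a replicate 1 peak, while both had a replicate 2 peak.

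Genes of ribosome biogenesis and the nucleolus, the compartment where ribosomes are assembled, came next, with 17 of 27, or 63.0% (42.4 to 80.6%), 2.56 times the share of all genes. Their median score was 1868, against 1931 for all genes with a peak. A score of 3100 or more was given at 5 of the 17, beside 31.9% of all genes with a peak. The highest score, 3126, was at NOP56 (chr1:20986029-20987744), a core protein of the particles that guide rRNA methylation. Peaks of 3100 lay at NAP57 (chr3:21155194-21157516), the plant dyskerin that makes pseudouridine in rRNA, at FIB1, the rRNA methyltransferase fibrillarin, at PUM23, a nucleolar Pumilio protein, and at EDA25 (chr1:27272885-27275258). The nucleolin genes differed, with 2988 at NUC-L1 and 1130 at NUC-L2. Of the fibrillarin pair, FIB1 had a replicate 1 peak and FIB2 had only a replicate 2 peak. RRP4, RRP41 and RRP45a, subunits of the exosome that trims RNA, had peaks of 1123, 1669 and 1181, while RRP41L had only a replicate 2 peak.

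Translation initiation factors had a peak in 17 of 30 genes, or 56.7% (37.4 to 74.5%), 2.31 times the share of all genes. Their peaks scored lower than those of ribosomal proteins, with a median of 1681, against 1931 for all genes with a peak. A score of 3100 was given at 3, where 31.9% of all genes with a peak scored 3100 or more. Those 3 were TIF3H1 (chr1:3609612-3611595) and EIF3G1 (chr3:3579650-3584266), subunits of eIF3, the scaffold that brings the small subunit to mRNA, and eIF6A (chr3:20633378-20635067), which keeps ribosomal subunits apart. Of the other genes with an EIF3 or TIF3 symbol, EIF3A, EIF3E, EIF3G2 and EIF3K had peaks too. EIF3C, TIF3C2, TIF3B1 and EIF3B-2 had none in the replicate 1 list, though EIF3C and EIF3B-2 had a replicate 2 peak. Among cap-binding factors, EIF4G had a peak of 1397 and AT1G29550, a gene of the eIF4E family, one of 1681. EIF4E had none in either list, and eIFiso4G1 and eIFiso4G2 had only a replicate 2 peak. The helicase genes EIF4A1 and EIF4A-2 had peaks of 2584 and 1177. With only the peaks that scored at or above the list median, 8 of 30 initiation factor genes (26.7%) had one, beside 13.1% of all genes, and the interval, 12.3 to 45.9%, then spanned the share of all genes.

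The other steps of translation did not stand out in this list. Of 33 genes of chloroplast and mitochondrial ribosomal proteins, 9 had a peak, or 27.3% (13.3 to 45.5%), on 8 different peaks. RPL12-B and RPL12-C shared 1 of them, chr3:10322390-10325379. Aminoacyl-tRNA synthetases, which load tRNAs, had a peak in 3 of 15 genes, and elongation and release factors in 1 of 8, that being ERF1-2. The synthetase genes OVA5 and EDD1 nonetheless had peaks of 3221 and 3100. The intervals of all of these groups included 24.6%.

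**Figure D3:**
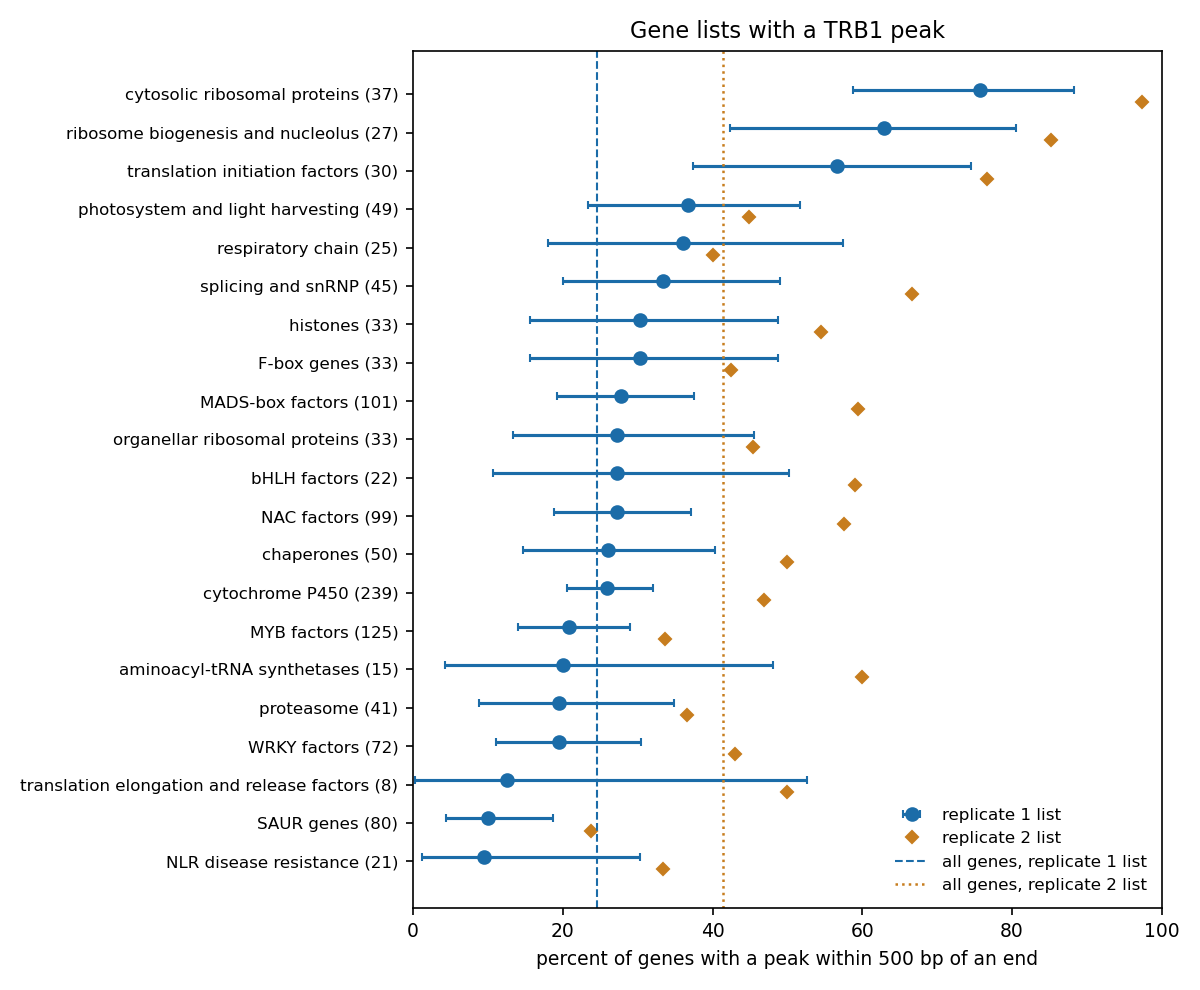
Percent of the genes of 21 lists that have a TRB1 peak within 500 bp of an end, in the replicate 1 list (circles with exact 95% intervals) and in the replicate 2 list (diamonds), with the number of genes in brackets; the dashed and dotted lines mark all protein-coding genes, at 24.6 and 41.4%. In the replicate 1 list the intervals of the top 3 lists lie above their line and that of the SAUR genes below it.

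Most groups outside translation lay near the background. Photosystem and light-harvesting genes, which encode the proteins that capture light, had a peak in 18 of 49 genes (36.7%, 23.4 to 51.7%), with 7 at 3100. For the scores in each group, the background is that 31.9% of all genes with a peak scored 3100 or more. CAB2 and CAB3, neighbouring genes of a chlorophyll-binding protein, shared the peak chr1:10471853-10476850, and PSAK and LHCA3 of photosystem I had peaks of 3100 as well. Splicing genes had a peak in 15 of 45, with 3100 at SR34 and SmD3. Histone genes had one in 10 of 33, with 3100 at the linker histone-like genes HON4 and HON5 and at GAMMA-H2AX. Proteasome genes had one in 8 of 41, of which 5 were at 3100, among them RPT1A and RPN1B. Chaperone genes had one in 13 of 50, with 3100 at HSC70-1, respiratory chain genes in 9 of 25, with 3100 at COX19-2 and at COX19-1, which shares its peak with the ribosomal protein gene SAG24 and has no replicate 2 peak, and F-box genes, which select proteins for breakdown, in 10 of 33. The NLR genes of disease resistance had one in 2 of 21. The interval of each of these groups included 24.6%. With only the peaks that scored at or above the list median, photosystem genes had a peak in 13 of 49 (26.5%), beside 13.1% of all genes, and their interval then lay above that share.

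The large families of transcription factors were also close to all genes. MADS-box factors had a peak in 28 of 101 genes (27.7%), NAC factors in 27 of 99 (27.3%), MYB factors in 26 of 125 (20.8%), WRKY factors in 14 of 72 (19.4%) and bHLH factors in 6 of 22 (27.3%). In the replicate 2 list the MADS-box share was 59.4% and the NAC share 57.6%, which are 1.43 and 1.39 times the share of all genes there. These were not the highest such ratios among lists near the background. Splicing genes had 1.61 and aminoacyl-tRNA synthetases 1.45, while bHLH factors had 1.43, WRKY factors 1.04 and MYB factors 0.812. The cytochrome P450 genes, enzymes of specialised metabolism, had a peak in 62 of 239 (25.9%), but on only 51 different peaks. CYP71B7 and CYP71B29, which neighbour each other, shared chr1:4465824-4468377.

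SAUR genes, small genes that respond to the hormone auxin, were the one list with an interval below the background. A peak lay at 8 of 80, or 10.0% (4.42 to 18.8%), beside 24.6% of all genes. In the replicate 2 list 23.8% had one, beside 41.4%. SAUR genes are short, with a median length of 815 bp, and stand apart, with a median gap of 651 bp to a neighbour. With a window of 1000 bp instead of 500, 16 of 80 had a peak (20.0%, beside 27.6% of all genes) and the interval no longer lay below. Nor did it where each peak counts only for the gene with the nearest end, with 4 of 80 SAUR genes (95% interval 1.38 to 12.3%) beside 9.59% of all genes. By that rule the cytochrome P450 genes, with 13 of 239 (5.44%, 2.93 to 9.12%), were the list below the background. SAUR peaks of 3100 lay at AT3G51200 (chr3:19016392-19018419) and at AT1G29420 (chr1:10299351-10300934), of which the second also held 5 snoRNA genes.

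Gene families defined by a shared symbol gave a finer view. Among 177 families of at least 10 named genes the median share with a peak was 25.8%, and 15 families had a peak at 50% of their genes or more. The highest was JAZ, the repressors of jasmonate signalling, with 7 of 10 (95% interval 34.8 to 93.3%). JAZ and the families named after it were picked by this same share, so their intervals do not allow for the choice among 177. In the replicate 2 list JAZ also had 7 of 10, beside 41.4% of all genes. JAZ7 and JAZ12 scored 3100, as did JAZ6, which shares its peak with the nucleolar gene EDA25, while JAZ3 scored 1044. Next was EIF, with 14 of 21, genes already counted among initiation factors.

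CHX, a family of cation/proton exchangers, had a peak at 15 of 23 genes (65.2%, 42.7 to 83.6%) on 16 different peaks. Peaks of 3100 lay at CHX2, CHX3, CHX6B, CHX14, CHX16, CHX19 and CHX24, where 31.9% of all genes with a peak scored 3100 or more. Part of the family is clustered: CHX4 and CHX12 shared chr3:16390805-16392892, and CHX10 had a peak nearby at chr3:16402777-16404691. ECT genes, readers of the methylation mark m6A on mRNA, had a peak at 6 of 11, with 3100 at ECT6 and ECT7. Their interval, 23.4 to 83.3%, included the 24.6% of all genes. TIM genes, of the protein import machinery of mitochondria, had one at 7 of 13, with 3100 at TIM10, TIM17-1 and TIM17-3. UBQ genes of ubiquitin were equal to them with 7 of 13. The interval of both, 25.1 to 80.8%, began just above the share of all genes. All 13 TIM genes had a replicate 2 peak, beside 41.4% of all genes.

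Symbols can join unrelated genes. RPL had 13 of 22 and RPS 14 of 24, and RPS includes disease resistance genes beside ribosomal ones. GRF, with 12 of 21, mixes 14-3-3 proteins and growth-regulating factors. No peak was found at 3 families, namely SAUR genes with a numbered symbol (16 genes), PDIL, the protein disulfide isomerase-like genes (12), and ADF, the actin depolymerising factors (11). A count of 0, taken to allow 3 genes, leaves room for a share of up to 18.8% for SAUR, 25.0% for PDIL and 27.3% for ADF, and the upper bounds of the exact intervals are 20.6, 26.5 and 28.5%, so PDIL and ADF are not distinguishable from the background at these numbers.

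Among genes that encode no protein, those of snoRNAs stood far above the others. These small nucleolar RNAs guide the chemical modification of rRNA. Of 287 snoRNA genes, 203 had a replicate 1 peak in the gene or the 500 bp around it, or 70.7% (65.1 to 75.9%), beside 24.7% of protein-coding genes by the same rule. The snoRNA genes of plants often stand in clusters, and the 203 genes lay at only 97 different peaks. Of these, 56 held 2 or more snoRNA genes within 500 bp and 41 held 1. A replicate 2 peak overlapped 94 of the 97, and 34 of the 97 scored 3100 or more, with a median of 2110. In the whole list 90.1% of peaks overlapped a replicate 2 peak, 29.4% scored 3100 or more, and the median score was 1772.

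The fullest snoRNA clusters had 5 or 6 genes under 1 peak. The peak chr2:18972531-18974227, with a score of 2921, held 6 and reached AT2G46190 and AT2G46200. The peak chr3:17444074-17445729, with 1497, held 6 and reached no protein-coding gene. Those at chr1:875145-876764, chr4:8712762-8715044 and chr4:18303910-18305434 held 5 each, with scores of 1978, 3100 and 742, as did the SAUR peak on chromosome 1. A protein-coding gene lay within 500 bp of 58.9% of snoRNA genes and of 72.8% of tRNA genes, whose share with a peak was near the background.

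No other class passed the protein-coding share in the replicate 1 list. For tRNA genes it was 139 of 625, or 22.2% (19.0 to 25.7%), for lncRNA genes 576 of 3480, or 16.6% (15.3 to 17.8%), and for miRNA genes 50 of 326, or 15.3% (11.6 to 19.7%). The snRNA genes of the spliceosome had a peak in 11 of 82, or 13.4% (6.89 to 22.7%), far below the snoRNA genes. In the replicate 2 list 42.7% of snRNA genes had one, beside 41.6% of protein-coding genes and 84.7% of snoRNA genes. The classes annotated as ncRNA (51 of 221), misc RNA (90 of 508) and antisense RNA (11 of 79) also lay at or below the protein-coding share, and the 4 rRNA genes of the table had no peak, a number too small to read. By amino acid, the tRNA genes ranged from 13 of 24 for methionine, 5 of 10 for histidine and 7 of 16 for phenylalanine to 4 of 41 for glycine and 2 of 24 for glutamate. The large sets for tyrosine (14 of 75), proline (10 of 66) and serine (9 of 64) lay between. These 20 groups are small, and the order is a description.

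Pseudogenes were at the other extreme, with a peak at 102 of 3917, or 2.60% (2.13 to 3.15%), and transcribed pseudogenes at 97 of 926, or 10.5%. Most pseudogenes lie where protein-coding genes are few. Within 1 Mb bins that hold at least 200 protein-coding genes, 68 of 733 pseudogenes had a peak, or 9.28%, beside 25.7% of the protein-coding genes there. The snoRNA share was 70.5% in those bins.

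**Figure D4:**
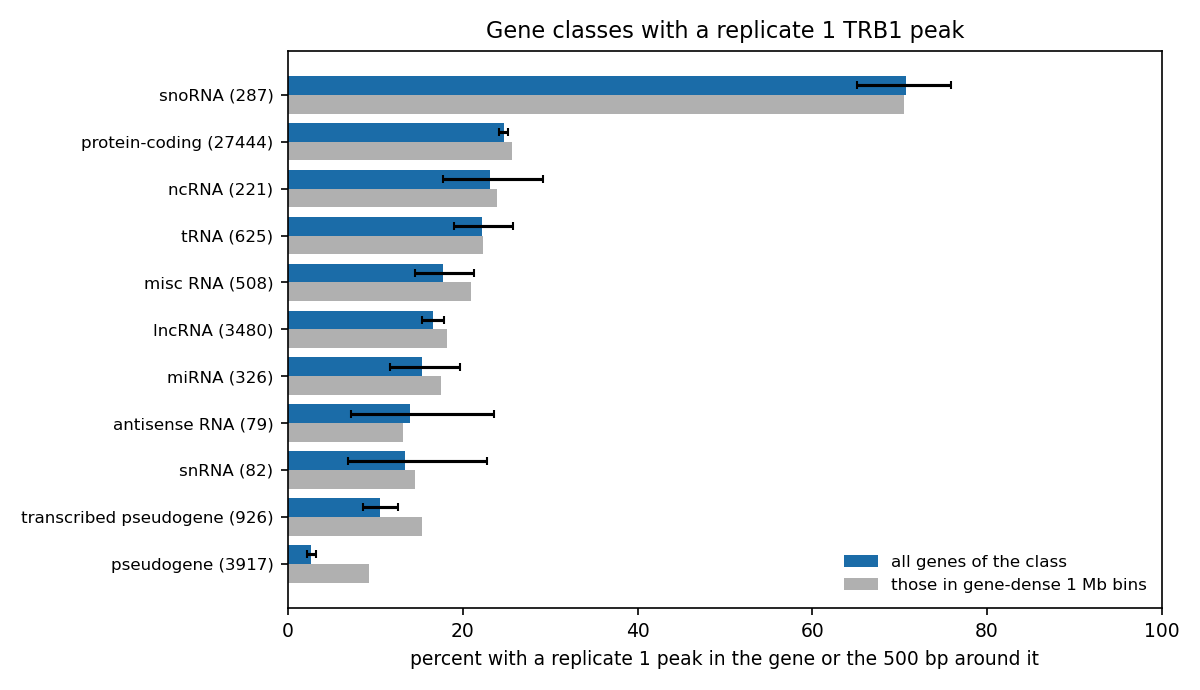
Percent of genes of 11 annotated classes with a replicate 1 peak in the gene or the 500 bp around it, for all genes of a class (blue, exact 95% intervals, number of genes in brackets) and for those in 1 Mb bins with at least 200 protein-coding genes (grey). The snoRNA bar reaches 70.7%, the protein-coding bar 24.7% and the pseudogene bar 2.60%.

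Along the chromosomes, genes near the ends had a peak more often than genes in the middle. In the outermost 1 Mb, 995 of 2903 protein-coding genes had one, or 34.3% (32.5 to 36.0%). The share was 30.0% (28.2 to 31.8%) at 2 to 3 Mb, 22.3% (21.1 to 23.4%) at 5 to 7 Mb and 16.5% (15.1 to 17.8%) beyond 10 Mb. Between 1 and 2 Mb it was 27.9%, so the decline was not even. The median score changed little, between 1703 and 1862, and so did overlap with the replicate 2 list, between 88.3 and 93.7% of peaks. The replicate 2 list had 52.9% in the outermost 1 Mb and 31.0% beyond 10 Mb.

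The ends were not alike. Within 2 Mb of an end, the share on chromosome 1 was 38.0% at the low-coordinate end and 37.5% at the other. On chromosome 2 it was 10.7% (7.98 to 14.1%) at the low-coordinate end, 46 of 428 genes, and 35.2% at the high-coordinate end. On chromosome 5 it was 23.5% at the low-coordinate end and 36.2% at the high-coordinate end. Of the 10 ends, these low-coordinate ends of chromosomes 2 and 5 were the only ones below the 24.6% of all genes, and for chromosome 5 the interval, 20.1 to 27.1%, included it. Position and gene density move together here. In 1 Mb bins with 300 or more protein-coding genes 32.5% of genes had a peak, against 19.5% in bins with 200 to under 250 and 6.52% in those with under 50, and the part of density in the result was not tested.

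**Figure D5:**
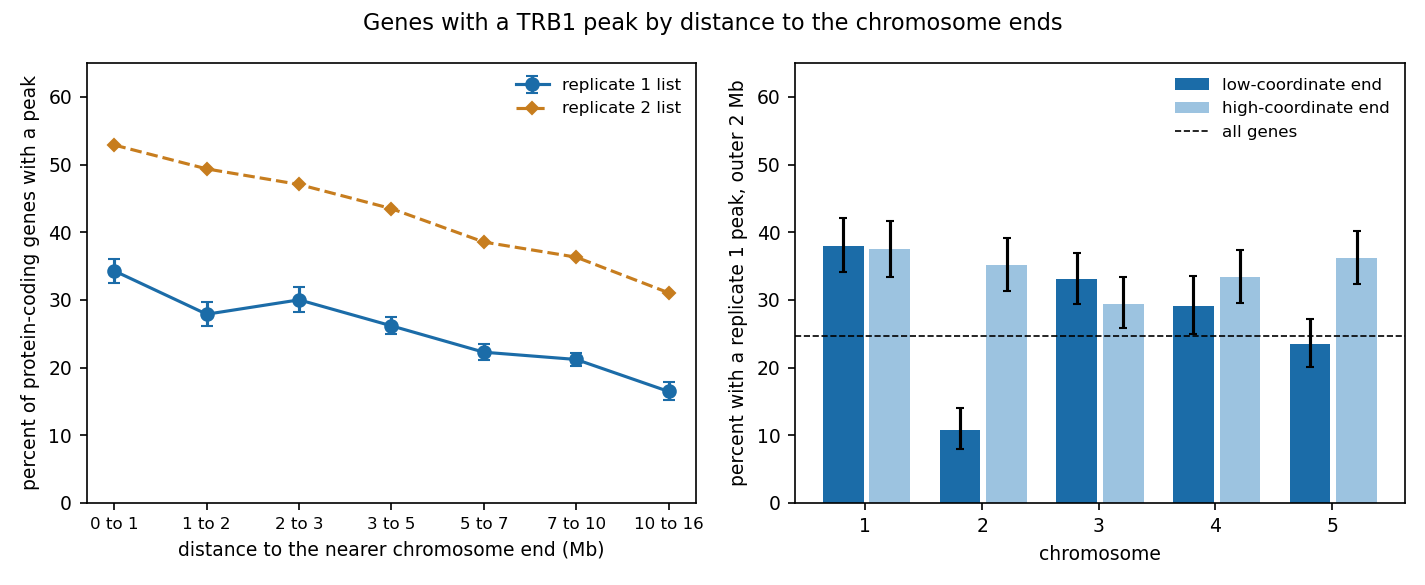
Percent of protein-coding genes with a TRB1 peak by distance to the nearer chromosome end, for the replicate 1 list (circles, exact 95% intervals) and the replicate 2 list (diamonds) (left), and the replicate 1 percent in the outer 2 Mb at each end of chromosomes 1 to 5 (right; dashed line at 24.6%, all genes). The share is 34.3% in the outermost 1 Mb and 16.5% beyond 10 Mb, and 10.7% at the low-coordinate end of chromosome 2.

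The outermost peak of each chromosome varied in score and in the genes it reached. On chromosome 3 the first peak, chr3:3640-9739, was 6100 bp wide, scored 3100 and reached 5 genes, among them ISU2, a scaffold gene for iron-sulfur clusters, and GAUT13, a pectin-synthesis gene. The first peak of chromosome 4, chr4:12615-14320, reached SD3, a gene of mitochondrial protein import, and that of chromosome 5, chr5:21545-23132, reached BSK10, a brassinosteroid signalling kinase gene. Both scored 3100. The first peak of chromosome 1, chr1:19967-22126 with 1294, was centred 2074 bp from the nearest gene end, that of DCL1, the enzyme that cuts miRNA precursors. The last peaks of chromosomes 2 and 5, chr2:19695976-19698094 and chr5:26970399-26973506, scored 2257 and 1007. All 10 outermost peaks overlapped a replicate 2 peak, beside 90.1% of the whole list.

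Whole chromosomes differed little. Chromosome 1 had 1093 peaks, or 35.9 per Mb (33.8 to 38.1), and chromosome 2 had 574, or 29.1 per Mb (26.8 to 31.6), a ratio of 1.23 (1.11 to 1.37). Chromosomes 3, 4 and 5 had 33.2, 33.8 and 33.4 per Mb. Per 100 protein-coding genes the counts were 15.3 on chromosome 1 and 13.3 on chromosome 2. Of 121 bins of 1 Mb, 3 held no peak, 1 on chromosome 3 and 2 on chromosome 4, and the fullest held 65.

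The 392 peaks with no counterpart in the replicate 2 list differed in width, score and position from the 3583 that had one. They were narrower, with a median width of 1626 bp against 2133 bp, and scored lower, 1181 against 1917. Of the 392, 148 lay outside genes and more than 500 bp from an end, or 37.8% (32.9 to 42.8%), against 14.0% of the 3583. No protein-coding gene was reached by 16.3% of them, against 4.24%. The PePr list overlapped 367 of the 392, or 93.6%, against 99.0% of the others.

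Some of these peaks scored high. A score of 3100 or more was given to 32 of the 392, or 8.16%, against 31.7% of the others. The highest, chr3:2345330-2346914 at 3193, reached AT3G07350, and chr2:2213846-2215762 at 3173 was centred in AT2G05810. The next 2, chr1:22885779-22888064 at 3173 and chr4:18254239-18255852 at 3154, each held a tRNA gene (AT1G61910 and AT4G39195). The fifth, chr4:14794869-14797430 at 3142, reached ATR2, a cytochrome P450 reductase gene. Over all 392, a tRNA gene lay within 500 bp of 19, or 4.85% (2.94 to 7.47%), against 3.24% (2.68 to 3.87%) of the others. A snoRNA gene lay within 500 bp of 3, or 0.765% (0.158 to 2.22%), against 2.62% (2.13 to 3.20%). In both cases the intervals overlap, which does not show that the shares are equal, and the differences were not tested.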

How the data were processed

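ChIP-seq was made from 4 libraries, which were sequenced as single-end reads, per the labels' protocols. The submitters' processing notes name Bowtie2 2.2.2, SAMtools, bedtools and MACS, and the builds TAIR9 and TAIR10, with no role or order, so neither the caller settings nor the build behind a given list is known here. The deposited lists give each peak's chromosome, start and end, and the replicate lists the score that the authors assigned. Genes came from the RefSeq table of TAIR10.1, whose nuclear chromosomes match TAIR10 in sequence. It has no strand and no sequence, so promoters and telo-boxes were not analysed here.

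Overlaps were counted with Python 3.11.15, pandas 2.3.3 and numpy 2.4.6 (minimum 1 bp), and exact Clopper-Pearson and Poisson intervals with scipy 1.17.1. Chromosome length runs to the last gene or peak. A gene has a peak when one overlaps the 500 bp on either side of its start or end. The counting was tested on simulated intervals. The peak list and the 21 gene lists, made by symbol and synonym, were chosen with earlier results of these data known, and 37.8% of protein-coding genes have a symbol. Genes were named by a fixed rule: up to 4 of highest score per list, those at the highest, widest, narrowest and outermost peaks and at the highest peaks absent from the replicate 2 list, and the families of highest or no share. Copies or subunits named beyond that were chosen after their values were seen. A design with 1 library per group allows no test, so none was made. Read depth is unknown.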

Additional observations from a re-analysis of the deposited data

How the results depend on the processing

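No paired analysis was possible because each group has 1 library and the lists come from no test across samples; leaving out a replicate was not possible for the same reason. The telo-box comparison and its alternatives were not run. Centres near a gene end were 41.5% of the list within 200 bp and 87.1% within 1000 bp, and 68.6% of peaks shared with the replicate 2 list. Genes with a peak were 22.9% at 200 bp, 27.6% at 1000 bp, 22.0% where the peak overlaps the gene, 13.1% with scores at or above the list median, and 9.59% where each peak counts only for the gene with the nearest end. By nearest end, ribosomal protein genes had 48.6%, which is 5.07 times the share of all genes by that rule. With scores at or above the median, initiation factors had 26.7% and ribosome biogenesis genes 33.3%. The share of snoRNA genes overlapped by a peak was 64.8%. Overlap with the replicate 2 list was 84.5% where at least 50% of both peaks is shared, 67.2% with centres within 200 bp and 77.5% between peaks at or above the median score of either list. In all 6 settings 3 lists had an interval above the share of all genes, but with scores at or above the median photosystem genes took the place of initiation factors. Below it lay SAUR genes in 4 settings, no list at 1000 bp and only cytochrome P450 genes by nearest end. The ratio of peaks per Mb on chromosome 1 to chromosome 2 was 1.24 by covered length and 1.30 with scores at or above the median. Of the other values by list and class, 74 stayed within their interval and 26 moved out of it. With only peaks at or above the median, or only the gene with the nearest end, the rule itself admits fewer genes. The share of all genes falls with it. The cause of the other shifts was not tested.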
